A study of Mus musculus with 4 samples.

Results

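The genes described here are 8 homeobox genes of the TALE class, namely Meis1, Meis2, Meis3, Pbx2, Pbx3, Pbx4, Pknox1 and Pknox2. They were taken from the deposited table by gene symbol and make up 8 of its 25239 gene symbols. The rule uses no measured value, but the members were chosen with earlier results of these data known. RNA was sequenced from hindlimb bud cells of FVB mouse embryos at embryonic day 11.5. All embryos were labelled wild-type for genotype and carried the reporter H11 hsp68-hZRS(404G>A)-mCherry, placed at the H11 locus, in which the red fluorescent protein mCherry is under the hsp68 promoter and the ZRS, a limb enhancer of Shh, in its human form with the 404G>A change. After dissection and sorting, 2 populations with 2 libraries each were compared: mCherry-positive cells of the anterior domain and mCherry-negative cells of the central domain. Domain and reporter activity therefore differ together and cannot be told apart in this comparison. The labels do not say whether the libraries of a population came from separate embryos, so p-values measure the spread between these libraries, which may be technical.

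TALE homeodomain proteins carry an extended loop in the homeodomain and act as DNA-binding partners of one another and of HOX proteins. PBX proteins bind DNA together with HOX proteins, and MEIS and PKNOX (also called PREP) proteins bind PBX and help to bring it into the nucleus. In the limb bud, Meis1 and Meis2 are known as markers and regulators of the proximal, body-side domain. Retinoic acid is known to promote their expression, and FGF signals from the distal ectodermal ridge are known to limit it.

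The positions of the members are given on GRCm38 (mm10) from GENCODE M21, and all 8 were annotated as protein-coding. Meis1 lies at chr11:18879817-19018985 on the minus strand, Meis2 at chr2:115863064-116065839 on the minus strand and Meis3 at chr7:16175090-16186504 on the plus strand. Pbx2 lies at chr17:34591266-34597400 (plus), Pbx3 at chr2:34171457-34373142 (minus) and Pbx4 at chr8:69832491-69872292 (plus). Pknox1 lies at chr17:31564734-31607693 (plus) and Pknox2 at chr9:36890982-37147407 (minus). Whether reads were counted by strand is not given in the sources used here. This bears on Meis1, where 8.51% of the exonic length is shared with the antisense gene Gm16140, and on Pknox1, which shares 2.24% with the antisense gene AC166172.4. Overlaps on the same strand leave counts uncertain whatever that setting: Meis1 shares 9.77% with Gm37818 and Pbx2 shares 6.24% with Gpsm3. The other 5 members share no exonic base with another annotated gene.

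The sequences before RefSeq start sites were examined because Meis1 and Meis2 fell together between the populations (values below). RefSeq sequences of the 250 bases before a gene start (GRCm38.p6) were at hand for Meis1, Meis2, Meis3, Pbx2 and Pbx4. These RefSeq starts are not the outermost GENCODE starts. The windows of Meis2, Meis3 and Pbx2 lie wholly inside the gene spans given above, and those of Meis1 and Pbx4 partly. They were searched on both strands for TGACAG (bound by MEIS and PKNOX), TGATTNAT (PBX with HOX), TTTATTG (HOX13 paralogs) and the DR5 retinoic acid response element, a direct repeat of AGGTCA with 5 bases between the copies. Of 32851 such upstream windows in the genome, 15.9% held TGACAG, 2.82% held TGATTNAT, 4.20% held TTTATTG and 0.00913% held the response element. Only TTTATTG was found in these 5 windows, once in Meis2 and once in Pbx4, and the windows of Meis1, Meis3 and Pbx2 held none of the 4 motifs. For Meis3, 160 of the 250 bases lay in annotated exons. The bases after the Pbx2 window were not found in a GENCODE M21 transcript of Pbx2. These absences therefore do not cover the sequence before the outermost GENCODE starts of Meis3 and Pbx2. The matches are descriptions of the letters, not evidence of binding. The stretch before Meis1 (chr11:19018986-19019219, minus strand, no motif, outside annotated exons) and the 30 bases around each match (Meis2 at chr2:116064815-116064844, minus strand, -225 to -196 from the start; Pbx4 at chr8:69832579-69832608, plus strand, -45 to -16) read as follows, with the match in capitals. Both 30-base sites touch an annotated exon. They also lie inside the gene spans given above, since positions are counted from a RefSeq start within the span.
Meis1 upstream: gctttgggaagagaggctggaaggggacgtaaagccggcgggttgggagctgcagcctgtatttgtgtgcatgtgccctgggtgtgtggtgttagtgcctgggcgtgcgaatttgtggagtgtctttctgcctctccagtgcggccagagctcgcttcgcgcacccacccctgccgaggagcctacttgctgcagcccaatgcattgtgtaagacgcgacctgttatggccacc
Meis2 site: cacatccaggagTTTATTGgagcgcagact
Pbx4 site: tgaaaagggcgtTTTATTGgctagtggact

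Library totals ranged from 30080925 to 33257383 counts. Levels are given as CPM, which are read counts scaled to a common library size, here with TMM factors between libraries. At this depth a count of 0 allows a level of up to 0.0899 to 0.102 CPM (3 counts), or 0.180 to 0.204 CPM (6 counts) if both mates of each read pair were counted, for counting error only. Genes that mark hindlimb mesenchyme were present in every library: Tbx4 was at 225, 238, 240.1 and 267 CPM and Pitx1 at 434, 450.2, 483 and 429.9 CPM in anterior libraries 1 and 2 and central libraries 1 and 2. All 8 members passed the filter on low counts and were tested among 14610 genes with edgeR's quasi-likelihood test and Benjamini-Hochberg adjustment, where an adjusted p-value under 0.05 is called. Over all tested genes, 22.9% were called, 12.3% lower and 10.7% higher in anterior cells. Of the members, 4 of 8 were called, all lower in anterior cells: Meis1, Meis2, Pbx3 and Pknox2. The median log2 fold change of the 8 members was -0.96, and that of all genes tested was -0.0087. In each of the 8 members the anterior and central values did not overlap (7 lower and 1 higher in anterior cells). The same held for 63.5% of all tested genes (32.6% lower and 30.8% higher).

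**Figure D1:**
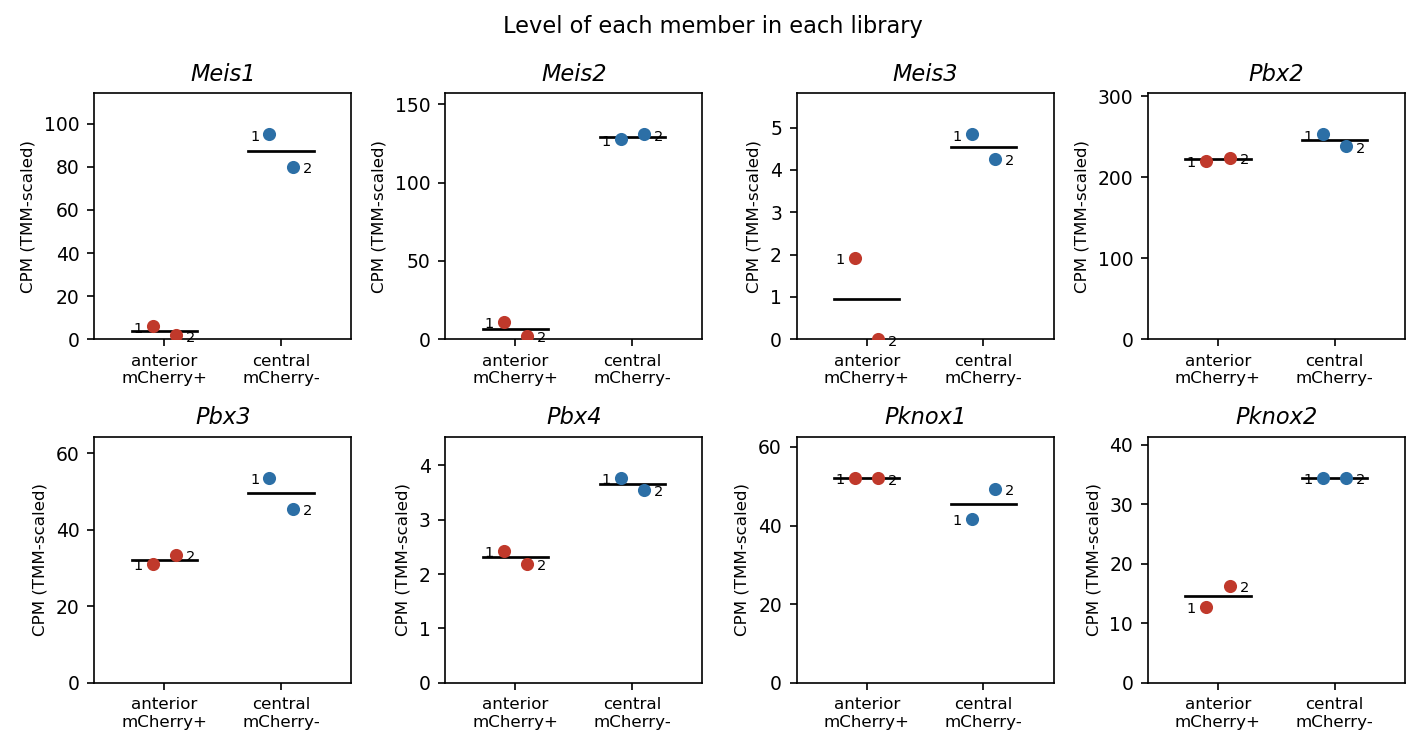
Level of each member in CPM (y axis, linear from 0, own scale per panel) in the 2 anterior mCherry-positive and 2 central mCherry-negative libraries (points, numbered by replicate; line, mean of the group). Meis1 and Meis2 stood between 1.77 and 11.03 CPM in the anterior libraries and between 79.9 and 131 in the central ones, while Pbx2 stood between 221 and 253 in all 4.

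The Meis genes, which encode the partners that bind PBX and DNA in the proximal limb, included the members with the largest differences, Meis1 and Meis2. Meis1 was counted 200 and 52 times in the anterior pair of libraries and 2927 and 2586 times in the central pair, or 5.996 and 1.77 against 95.04 and 79.9 CPM. Both anterior values lay far below both central ones. Meis1 thus averaged 3.88 ± 2.99 CPM in anterior and 87.5 ± 10.7 CPM in central cells (SD, n = 2 each), and was 22.0-fold lower in anterior cells (log2 fold change -4.46, SE 0.35, adjusted p-value 4.86e-05 in edgeR). Meis2 was counted 368 and 60 times against 3929 and 4230, or 11.03 and 2.05 against 128 and 131 CPM. The central libraries were close to each other, and both anterior libraries were low. Meis2 averaged 6.54 ± 6.36 CPM in anterior and 129 ± 2.19 CPM in central cells (SD, n = 2 each), 19.3-fold lower in anterior cells (log2 fold change -4.27, SE 0.46, adjusted p-value 0.000329 in edgeR). Among the 14610 tested genes, 0.979% had a log2 fold change at or below that of Meis1, and 1.09% at or below that of Meis2. Meis3, the other paralog, was scarce throughout, with 64 and 0 counts in anterior against 149 and 138 in central libraries. Its anterior libraries disagreed, at 1.92 and 0 CPM, while the central ones stood at 4.84 and 4.26. The difference did not pass the threshold (log2 fold change -2.21, SE 0.95, 95% interval -4.37 to -0.048, adjusted p-value 0.135 in edgeR).

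All 3 Meis genes were higher in anterior library 1 than in anterior library 2, so the size of the fall depends on the library. The ratio between these libraries was 3.38 for Meis1 and 5.39 for Meis2. On log2 CPM with a prior count of 2, which damps differences at low counts, few tested genes had an anterior replicate difference as large. The share was 1.77% for Meis1, 0.643% for Meis2 and 0.0068% for Meis3, each counting the gene itself. For Meis3 the difference was between 64 and 0 counts. The fold change on the log2 scale was -5.62 for Meis1 and -5.97 for Meis2 without anterior replicate 1, and -3.86 and -3.54 without anterior replicate 2. The edgeR call of Meis1 held in each of these fits, as did that of Meis2. With a robust prior, which lets the most variable genes keep more of their own spread, Meis2 did not pass (adjusted p-value 0.108, against 0.0463 for Meis1). Meis3 was called or not according to the setting, with edgeR, DESeq2 and limma-voom adjusted p-values from 4.39e-06 to 0.655 over the 14 alternatives. It passed without anterior replicate 1 (adjusted p-value 4.39e-06), where the remaining anterior library had 0 counts, and without central replicate 2 (log2 fold change -2.30, adjusted p-value 0.0438).

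The PBX genes, which encode the common partners of MEIS, PKNOX and HOX proteins, differed by much less. Pbx2, the most abundant member per length, stood at 221 and 224 CPM in the anterior pair and 253 and 238 CPM in the central pair. Its anterior values were slightly lower, and the difference did not pass the threshold (log2 fold change -0.14, SE 0.063, 95% interval -0.288 to -0.000753, adjusted p-value 0.140 in edgeR). Without central replicate 2 it did pass (log2 fold change -0.185, adjusted p-value 0.0391). Pbx3 stood at 31.1 and 33.4 CPM in the anterior pair and at 53.6 and 45.5 CPM in the central pair. Both anterior values were below both central ones, by more than the replicates of either population differed. Its level was 1.54-fold lower in anterior cells (32.2 ± 1.66 against 49.5 ± 5.73 CPM, SD, n = 2 each; log2 fold change -0.62, SE 0.11, adjusted p-value 0.00368 in edgeR). Pbx4 was scarce, with 81 and 64 counts in anterior against 116 and 115 in central libraries. It stood at 2.43 and 2.18 CPM in anterior against 3.77 and 3.55 CPM in central libraries and did not pass the threshold. Its 95% interval ran from -1.33 to 0.0051 on the log2 scale around -0.66, so a difference as large as that of Pbx3 is within it (edgeR adjusted p-value 0.145).

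The 2 Pknox genes, whose proteins bind PBX through the same kind of domain as MEIS, had different outcomes. Pknox1 stood at 52.1 and 52.0 CPM in the anterior pair and at 41.7 and 49.4 CPM in the central pair. It was the only member with a higher mean in anterior cells, and the difference did not pass the threshold (log2 fold change 0.19, SE 0.099, 95% interval -0.033 to 0.42, adjusted p-value 0.204 in edgeR). Without central replicate 2, the higher of the central libraries, it did pass (log2 fold change 0.324, adjusted p-value 0.0308). Pknox2 stood at 12.8 and 16.3 CPM in the anterior libraries and at 34.4 CPM in both central ones. Both anterior libraries were low, and the central ones were nearly equal. Pknox2 was 2.37-fold lower in anterior cells (14.5 ± 2.47 against 34.4 ± 0.020 CPM, SD, n = 2 each; log2 fold change -1.25, SE 0.13, adjusted p-value 0.000281 in edgeR). The anterior replicates moved the other way from those of the Meis genes, since Pknox2 was lower in anterior library 1 than in library 2 (ratio 0.785). Pbx3 and Pknox2 were called under each of the 14 alternatives.

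**Figure D2:**
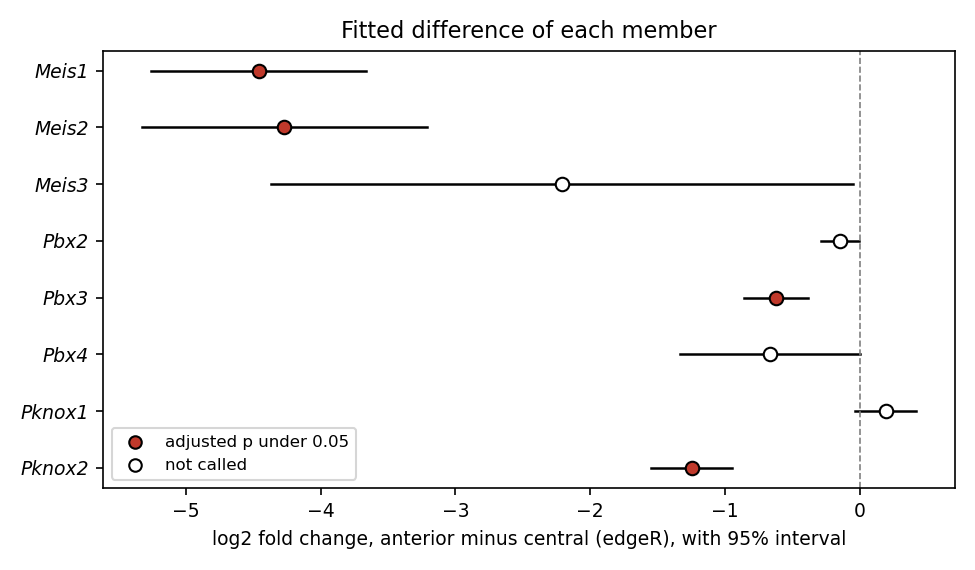
Log2 fold change of each member between anterior and central cells (x axis, anterior minus central; point, edgeR estimate; bar, 95% interval; filled where the adjusted p-value is under 0.05). Meis1 lies at -4.46, Meis2 at -4.27, Pknox2 at -1.25 and Pbx3 at -0.62, and the open points of Meis3, Pbx2, Pbx4 and Pknox1 did not pass.

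Levels of different genes were compared per length, as CPM per kilobase of exonic length in GENCODE M21. In central cells the order from high to low was Pbx2 (67.4 CPM per kb), Meis2 (10.7), Meis1 (8.31), Pbx3 (8.11), Pknox1 (6.57), Pknox2 (3.33), Pbx4 (1.65) and Meis3 (1.43). Of these neighbours, Meis1 and Pbx3 overlapped over the 2 libraries and the other pairs did not. In anterior cells the order was Pbx2 (61.0 CPM per kb), Pknox1 (7.51), Pbx3 (5.28), Pknox2 (1.41), Pbx4 (1.04), Meis2 (0.543), Meis1 (0.369) and Meis3 (0.302). Here the values of Meis2 and Meis1 overlapped, and so did those of Meis1 and Meis3. Meis2 and Meis1 thus stood next below Pbx2 in central cells, and below Pknox1, Pbx3 and Pknox2 in anterior cells, and both statements also held with coding length. The place of Pbx4 depended on the length: per kilobase of coding length, an alternative chosen after seeing the data, it stood in anterior cells at 2.03 CPM, below Meis2 (4.57) and Meis1 (2.79, overlapping with Pbx4).

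Summed over a family, the Meis genes amounted to 19.0 and 3.82 CPM in the anterior pair and to 227 and 215 CPM in the central pair. This is a 19.4-fold difference of the means (log2 ratio -4.28; -5.86 without anterior replicate 1 and -3.54 without anterior replicate 2). The sums of Pbx2, Pbx3 and Pbx4 were 254 and 259 CPM in anterior against 310 and 287 CPM in central libraries, a 1.16-fold difference. Those of Pknox1 and Pknox2 were 64.9 and 68.3 CPM against 76.1 and 83.8 CPM, a 1.2-fold difference. With 2 against 2 libraries the smallest two-sided p-value of an exact permutation test is 0.333, so these sums were not tested. Among the genes that encode the PBX-binding partners, the ratio of the summed Meis to the summed Pknox level per length was 0.239 and 0.0373 in the anterior pair and 2.27 and 1.89 in the central pair. The Meis genes thus exceeded the Pknox genes in both central libraries and were below them in both anterior ones.

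The make-up within families also differed between the populations. Pknox1 supplied 85.9% and 82.7% of the summed Pknox level per length in the anterior pair and 64.4% and 68.1% in the central pair. Pbx2 supplied 90.7% and 90.5% of the summed level of Pbx2, Pbx3 and Pbx4 in anterior against 86.9% and 87.9% in central libraries. In the Meis family the central libraries were alike, with Meis2 at 50.1% and 54.9%, Meis1 at 42.7% and 38.4% and Meis3 at 7.21% and 6.79% of the sum. The anterior libraries were not, with Meis3 at 28.9% in the first and 0% in the second, where few Meis counts were left to divide. With coding length the share of Meis3 in anterior library 1 was 12.35%. Shares depend on the length used for each gene, and coding length gave other shares with the same order of populations for Pknox1 and Pbx2.

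**Figure D3:**
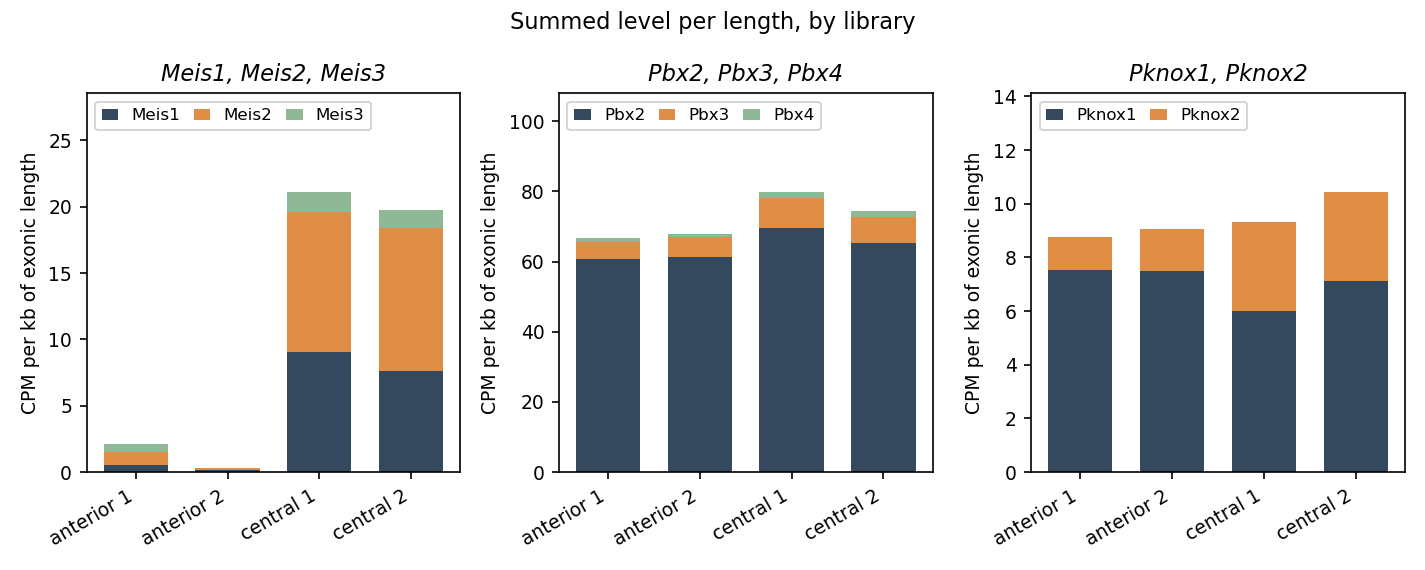
Summed level per length of the Meis genes, of Pbx2 to Pbx4 and of the Pknox genes in each library (y axis, CPM per kb of exonic length, linear from 0; stacked colours, single genes). The Meis bars fall from 21.1 and 19.8 in the central libraries to 2.09 and 0.338 in the anterior ones, whereas the Pbx bars stay between 66.8 and 79.9.

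The genes whose pattern over the 4 libraries was nearest to that of Meis1 and Meis2 were sought by Euclidean distance between log2 CPM values centred on each gene's mean, among the other 10604 tested genes with a mean of at least 5 CPM. The nearest 5 to Meis1 were Sostdc1 (distance 0.307), Fibin (0.325), Nr2f1 (0.470), Osr1 (0.491) and Meis2 (0.518). The nearest 5 to Meis2 were Nr2f1 (0.0989), Meis1 (0.518), Osr1 (0.558), Sostdc1 (0.624) and Fibin (0.658). Both searches returned the same 4 genes beside the other Meis gene, and they are not independent, because Meis1 and Meis2 lie near each other (0.518). Nr2f1, which encodes an orphan nuclear receptor, stood at 4.95 and 0.920 CPM in the anterior pair and at 56.8 and 55.4 CPM in the central pair. Osr1, a zinc finger factor of limb connective tissue, stood at 2.85 and 0.682 against 57.3 and 48.8 CPM. Fibin stood at 2.55 and 0.750 against 54.3 and 40.4 CPM. Sostdc1, a secreted antagonist of BMP and Wnt signals, stood at 0.840 and 0.239 against 11.6 and 11.9 CPM. Each of the 4 was low in both anterior libraries and lowest in the second, as Meis1 and Meis2 were, because they were selected for this pattern. With 4 libraries in 2 groups, the distance is a description only.

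**Figure D4:**
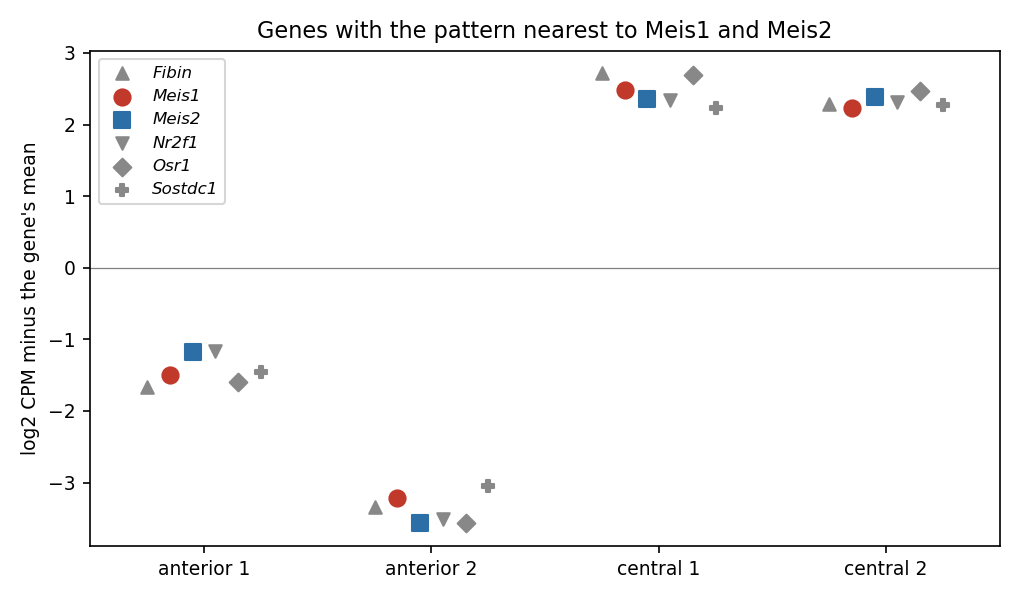
Log2 CPM minus the gene's mean over the 4 libraries (y axis) for Meis1, Meis2 and the 4 genes nearest to both (symbols), by library (x axis). The 6 genes lie close together in every library, above 2 in the central libraries and below -1 in the anterior ones.

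The other TALE genes, the Irx, Tgif and Mkx genes, numbered 11 in the table, of which 7 were tested (median log2 fold change -0.080). Of these 7, 2 were called, both lower. This is near the share over all tested genes, of which 22.9% were called, 12.3% lower. The called genes were Irx3, at 1.62 and 0.545 CPM in anterior against 66.2 and 49.0 CPM in central libraries (log2 fold change -5.69), and Irx5, at 0.840 and 0.0682 against 35.7 and 21.7 CPM (log2 fold change -5.91). Tgif1 and Tgif2, which encode repressors of this class, did not pass the threshold (log2 fold changes 0.14 and -0.014). Without central replicate 1, 1 gene of this list was called higher.

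Proximal limb bud genes other than the members were called lower in 7 of 8 cases, with a median log2 fold change of -2.55. This list also holds Irx3 and Irx5. Shox2, needed for the proximal limb skeleton, stood at 77.9 and 57.8 CPM in anterior against 445 and 463 CPM in central libraries (log2 fold change -2.74, SE 0.12, adjusted p-value 3.34e-06 in edgeR). Distal limb bud genes went the other way: of 13 tested, 11 were called, all higher, with a median of 1.595. Msx1, Msx2 and Lhx2, homeobox genes of the distal and marginal mesenchyme, had the highest log2 fold changes of that list (3.26, 2.80 and 2.65).

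The HoxA and HoxD genes, whose proteins bind DNA with PBX and MEIS, were called higher in 6 of 11 cases, with a median log2 fold change of 0.34. Hoxa13, Hoxd13 and Hoxd12, which belong to the distal list as well, had log2 fold changes of 1.76, 1.595 and 0.98. Genes that respond to FGF signalling were called higher in 9 of 9 cases, with a median of 1.33. Among them Spry1 and Spry4, feedback inhibitors of the pathway, rose by 2.02 and 2.01 on the log2 scale and the ETS factor gene Etv4 rose by 1.48. In contrast, genes of the retinoic acid pathway moved in both directions, with 5 of 16 tested genes called lower, 2 called higher and a median of -0.23. Among the lower genes were Stra6, which encodes a retinol transporter, at 16.3 and 12.0 CPM in anterior against 81.9 and 87.5 CPM in central libraries (log2 fold change -2.58), and Rarb, a receptor gene that retinoic acid itself induces (-2.26). Higher were Crabp1, which encodes a cellular retinoic acid-binding protein (1.12), and Cyp26b1, which encodes an enzyme that breaks retinoic acid down, at 645 and 702 against 321 and 398 CPM (log2 fold change 0.90). Cyp26a1, which encodes another enzyme of the same breakdown, was scarce and was called lower, with 0 and 4 counts in anterior against 27 and 53 in central libraries (adjusted p-value 0.0145 in edgeR). Aldh1a2, which encodes the main enzyme of retinoic acid synthesis in the embryo, did not pass the threshold, at 29.98 and 9.82 CPM in anterior against 37.7 and 25.6 CPM in central libraries. Genes for PBX-interacting or chromatin partners were called in 2 of 9 cases, near the 22.9% of all tested genes, with a median of 0.098. Of these 9 genes, 1 was called lower, Pbxip1 (log2 fold change -0.77), which encodes a PBX-interacting protein, and 1 was called higher, the acetyltransferase gene Kat2a (0.39). Without central replicate 1, 3 of these genes were called lower, and without central replicate 2, 4 were called higher. The lists were put together with results of these data known, so their counts are not independent evidence of a direction.

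**Figure D5:**
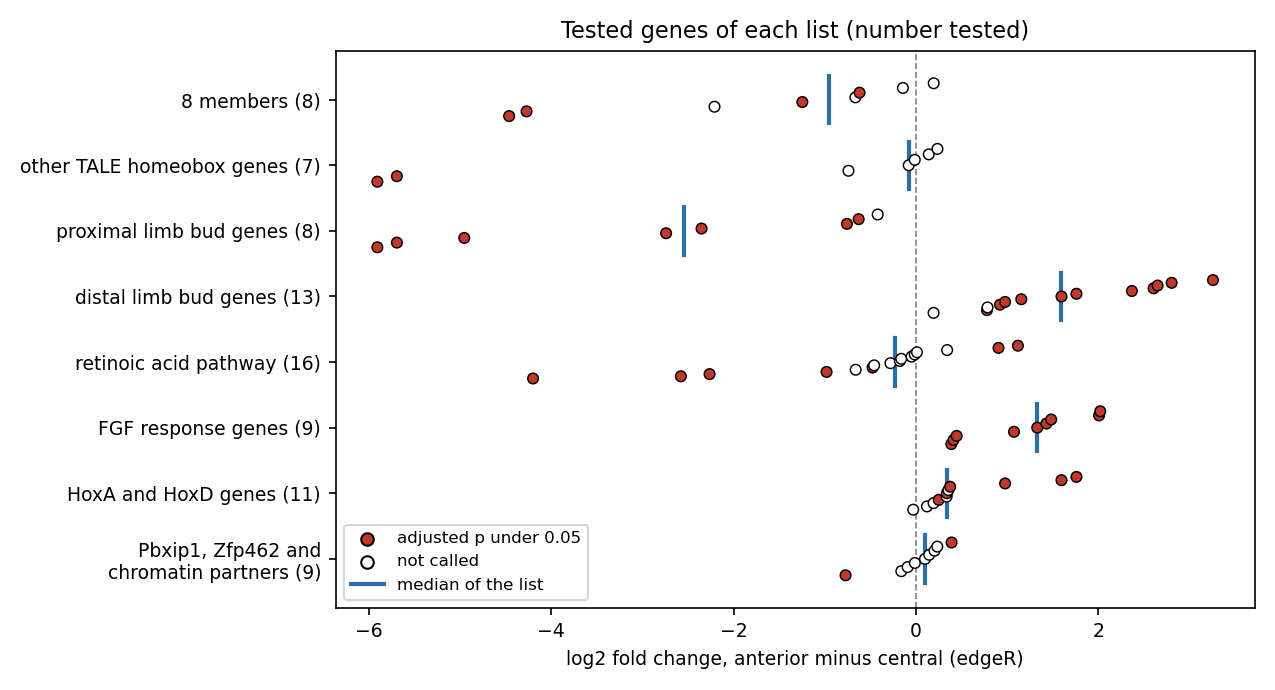
Log2 fold change between anterior and central cells (x axis, anterior minus central) of the tested genes of each list (points; filled where the edgeR adjusted p-value is under 0.05; blue line, median). Proximal limb bud genes lie to the left (median -2.55), and distal limb bud genes (1.595) and FGF response genes (1.33) to the right.

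Markers of other cell types moved with the populations and are given here because the libraries are bulk samples, in which fewer cells of a type and less RNA per cell cannot be told apart. Myogenic markers were called lower in anterior cells in 7 of 7 cases, with summed levels of 2.35 to 4.17 CPM in anterior against 142 to 143 CPM in central libraries and Pax7 and Myog at 0 in both anterior libraries. Endothelial markers were called lower in 6 of 10 cases (12.8 to 15.1 against 38.8 to 45.7 summed CPM, none at 0 in both anterior libraries). Chondrogenic markers were called lower in 6 of 8 tested cases, with 302 to 414 against 1202 to 1542 summed CPM. Among the listed chondrogenic markers, Matn1 was at 0 in both anterior libraries and Snorc in all 4, and neither was tested. Ectodermal markers were called lower in 10 of 11 cases (10.2 to 10.4 against 58.6 to 196 summed CPM, none at 0 in both anterior libraries). Schwann precursor and neural markers were called lower in 2 and higher in 1 of 7 tested cases (51.3 to 66.8 against 38.7 to 53.8 summed CPM), with Sox10 and Foxd3 at 0 in both anterior libraries and Fabp7 in all 4. Blood markers were called higher in 9 of 10 tested cases, with summed levels of 3304 and 8407 CPM in the anterior libraries against 9.94 and 13.3 CPM in the central ones, and Hba-a1 was at 0 in all 4. Limb mesenchyme markers were called lower in 1 and higher in 3 of 7 cases, at 2443 to 2501 against 2255 to 2400 summed CPM. The part of these other cell types in the lower levels of Meis1, Meis2, Pbx3 and Pknox2 was not tested. Between anterior libraries 1 and 2, the summed myogenic (4.17 against 2.35 CPM) and chondrogenic (414 against 302 CPM) levels were higher in library 1. So were the Schwann precursor and neural (66.8 against 51.3 CPM) and limb mesenchyme (2501 against 2443 CPM) levels. The blood (3304 against 8407 CPM), endothelial (12.8 against 15.1 CPM) and, slightly, ectodermal (10.25 against 10.43 CPM) levels were higher in library 2. The part of these cell types in the replicate difference of the Meis genes was not tested either.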

How the data were processed

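RNA-seq was done on 4 libraries of sorted hindlimb cells. The authors deposited whole-number read counts per gene symbol, not normalized. Per the submitters' processing notes, STAR 2.7.9a, HTSeq and DESeq2 were used, in roles that are not given, with mm10 as the build. The annotation and strand setting are not given in the sources used here. Each count column was matched to a sample title by domain and number, and group and replicate were taken from the title.

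From the counts, edgeR 4.0.16 (R 4.3.3) kept genes by filterByExpr, scaled libraries by TMM and tested anterior against central by the quasi-likelihood F test over 14610 genes, with Benjamini-Hochberg adjustment and 2 residual degrees of freedom. The SE is the absolute log2 fold change divided by the square root of F, and 95% intervals use the moderated degrees of freedom. The procedure was tested on simulated data. No library pair agreed within sampling noise (chi-square per degree of freedom 15.1 and 8.49 within anterior and central, halved counts). Between 72.8% and 75.6% of counts from 1 to 10 were even. Counting both mates of many pairs could give this, but how mates were counted is not given, so halved counts were tried.

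Alternatives were other scalings, filters and priors, DESeq2 1.42.0, limma-voom (limma 3.58.1), halved counts, a replicate block, leaving out each library, and coding length for shares and, added after seeing the data, for the order of levels. Named genes were the 8 members, up to 3 called genes per list and direction with the largest change and at least 5 CPM, and the 5 nearest patterns to Meis1 and Meis2. Tgif1, Tgif2, Aldh1a2, Cyp26a1, Tbx4, Pitx1 and the markers at 0 were named after their values were seen. One gene that the rule names is not reported here. Members, lists and rules were chosen with earlier results of these data known.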

Additional observations from a re-analysis of the deposited data

How the results depend on the processing

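Of the members, Meis1, Pbx3, Pbx4 and Pknox2 kept their direction and their side of the threshold under all 14 alternatives run. Meis2 lost its call with the robust prior, at an unchanged log2 fold change of -4.27. Meis3 was called without a filter beyond 1 count (-2.20), with limma-voom (-4.51) and with the replicate block (-2.75), and ranged from -10.1 to -1.24 over the fits that left out 1 library; the first of these compares 0 counts with the central libraries and is no bound. Pbx2 ranged from -0.185 to -0.0978 and Pknox1 from 0.0789 to 0.324 in those fits. Each such fit that leaves 1 library in a group assumes that it varies like the others. In those fits 2009 to 3697 genes were called (809 to 1884 higher in anterior), against 3351 (1559 higher) with all libraries, and the low of 2009 was without anterior replicate 2. They called 0 to 1 members higher, 0 to 1 other TALE genes higher, and 1 to 3 lower and 1 to 4 higher genes of the PBX-interacting and chromatin list, which had 2 higher without a filter. The retinoic acid list had 1 higher gene with the robust prior, and the distal limb bud list had 9. The HoxA and HoxD list had 5 to 7 higher genes over the alternatives that kept all libraries. That number varied more widely over the fits that left out 1 library, and the FGF response list had fewer higher genes without anterior replicate 2. For each of these changes the cause was not tested.

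With coding length in place of exonic length, shares in anterior and central cells were 54.6% and 57.6% for Meis2, 86.5% and 82.2% for Pbx2, 12.4% and 16.4% for Pbx3, 1.02% and 1.39% for Pbx4, 79.6% and 58.9% for Pknox1 and 20.4% and 41.1% for Pknox2. The share of Meis3 in central cells was 2.55%.

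Same-numbered libraries share only a number in the titles, and their replicate differences correlated at 0.0463 across genes, which are not independent replicates. With the replicate block 3586 genes were called, and Meis3 was the only member whose call changed. Meis3 and Pbx4 had at most 149 counts in any library; with halved counts their adjusted p-values in edgeR were 0.0808 and 0.132.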
